A study of Mus musculus with 24 samples.

Results

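The genes described here encode secreted ligands of the transforming growth factor beta superfamily and one of their inhibitors: the activin subunits Inhba and Inhbb, the activin-binding protein follistatin (Fst), the bone morphogenetic proteins Bmp2, Bmp4 and Bmp7, and the transforming growth factors Tgfb1, Tgfb2 and Tgfb3. They were taken as every probe set annotated with exactly 1 of these gene symbols, which gave 13 probe sets for 9 genes among the 12488 probe sets of the array. Of these, 7 probe sets of 6 genes were bright enough to be tested (Inhba, Inhbb, Fst, Bmp4 with 2 probe sets, Tgfb1 and Tgfb3). The other 6, which are all 3 probe sets of Bmp2, the only ones of Bmp7 and Tgfb2, and a second one of Tgfb3, were not, and their levels are given without a test, apart from what a fit with no filter gave.

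The study set immature against mature fat cells of the brown and the white kind, using mouse cells in primary culture and Affymetrix Murine Genome U74Av2 arrays. The groups were brown cells at day 7 after isolation (n = 5 arrays), brown cells at day 4 (n = 5), white cells at day 7 (n = 6) and white cells at day 4 (n = 8), the labels calling day 7 differentiated and day 4 not differentiated. The labels name no strain, sex, genotype, added agent or medium, and arrays are called here by the number in their label. Whether the arrays of 1 group are separate animals, separate cultures or repeats of 1 culture is not stated, and p-values therefore describe array-to-array spread that may be technical. Brown arrays hold the low numbers and white arrays the high ones, so that handling and cell type cannot be told apart.

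Activins are dimers of inhibin beta subunits, and together with the transforming growth factors beta they bind type II and type I receptor kinases that phosphorylate Smad2 and Smad3. Bone morphogenetic proteins use related receptors that phosphorylate Smad1, Smad5 and Smad9, and both branches share Smad4. Follistatin binds activin and keeps it from its receptors. In fat, activin A and Tgfb1 are known to hold back the differentiation of precursor cells, Bmp4 and Bmp2 to commit precursors to the adipocyte lineage, Bmp7 to promote brown fat formation, and INHBB to be expressed by mature adipocytes in humans.

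The promoters of the 3 members that differed between brown and white cells at day 7 are shown to place their transcripts in the genome. They run from 250 bases before to 50 bases after the RefSeq start of the gene (build GRCm38.p6), and 5 of the 9 members had such an entry. Inhbb lies on the minus strand at chr1:119422199-119422498, Inhba on the plus strand at chr13:16011601-16011900 and Tgfb1 on the plus strand at chr7:25686752-25687051. Capitals mark matches on either strand to the GC box GGGCGG or to the TATA motif TATAAA.
Inhbb: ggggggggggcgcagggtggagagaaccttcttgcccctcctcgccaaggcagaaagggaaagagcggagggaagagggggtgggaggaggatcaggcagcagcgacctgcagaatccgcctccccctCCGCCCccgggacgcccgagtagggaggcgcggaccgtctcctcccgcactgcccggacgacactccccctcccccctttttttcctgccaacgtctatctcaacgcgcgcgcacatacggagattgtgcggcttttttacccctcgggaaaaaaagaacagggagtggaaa
Inhba: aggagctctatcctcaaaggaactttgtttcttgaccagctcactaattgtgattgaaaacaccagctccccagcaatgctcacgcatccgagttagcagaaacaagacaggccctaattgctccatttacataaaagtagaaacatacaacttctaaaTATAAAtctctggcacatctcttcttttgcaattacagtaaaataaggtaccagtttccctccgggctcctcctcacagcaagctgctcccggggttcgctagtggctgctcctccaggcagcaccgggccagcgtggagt
Tgfb1: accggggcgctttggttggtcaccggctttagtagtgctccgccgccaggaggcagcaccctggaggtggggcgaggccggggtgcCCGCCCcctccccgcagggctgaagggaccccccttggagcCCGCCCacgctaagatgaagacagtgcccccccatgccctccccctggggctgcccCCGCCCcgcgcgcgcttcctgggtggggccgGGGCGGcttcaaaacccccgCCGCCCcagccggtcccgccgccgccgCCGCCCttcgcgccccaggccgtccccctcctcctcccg

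The GC content was 64.3% for Inhbb, 47.7% for Inhba and 77.0% for Tgfb1, against a median of 52.7% over the 32851 promoters of the same length. Tgfb1 held 6 GC boxes and Inhbb 1, a motif found in 35.7% of all these promoters. Inhba held 1 TATA motif, found in 13.6% of them. The SMAD-binding core CAGAC, searched on both strands and found in 49.6% of all, had 0 matches in these 3 windows, which says only that these letters are not there. Each window held matches to only 1 kind of motif, so that none of different kinds overlapped, and a match is a description of sequence only.

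The values were MAS5 signals on a linear scale, with every array brought to a 2% trimmed mean of 150. Signals under 8.21, the 20th percentile of all values, were set to that floor before log2 was taken, and a probe set was tested when it lay above the 40th percentile of its own array on at least 5 arrays. The 40th percentile ran from 23.8 to 35.8 and the median signal from 41.9 to 58.9 over the 24 arrays. Differences are log2 differences ± SE from one limma fit of the 4 groups, with Benjamini-Hochberg adjustment of p over the 8397 tested probe sets and a call at an adjusted p under 0.05. In a culture, fewer cells of a type and less RNA per cell cannot be told apart.

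Along the principal component that took up most variance (30.0%), brown arrays lay at 15.8 to 40.9 and white arrays at -38.9 to -5.41, except white day 4 arrays 45 and 51, which lay at 12 and 9.98. The Gapdh 3′ over 5′ signal ratio, which grows as RNA is degraded from its 5′ end, averaged 1.36 ± 0.204 on white day 7 arrays (SD, n = 6), against 0.943 ± 0.0955 on white day 4 arrays (n = 8), a difference with a two-sided exact permutation p of 0.00133 (0.00533 adjusted over 4 comparisons). On brown day 7 arrays it averaged 0.889 ± 0.0379 (n = 5), below the white day 7 arrays (exact permutation p = 0.00433, adjusted 0.00866). All 5 tested brown adipocyte markers were higher in brown than in white cells on both days, and all 5 tested markers associated with white cells were lower. Of the brown ones, Cidea, Zic1 and Lhx8 had white day 7 median signals of 9.71, 2.20 and 6.75, under the filter level. They passed mainly through brown arrays, so that their direction was partly fixed by the filter. The white-associated Tcf21, with a median of 8.80 at brown day 7, likewise passed mainly through white arrays. The defining brown marker Ucp1 did not pass the filter, with a median signal of 53.1 (day 7) and 19.4 (day 4) in brown cells, against 8.71 (day 7) and 5.34 (day 4) in white cells.

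Inhbb, the activin beta B subunit, was higher at day 7 than at day 4 in both kinds of cell and lower in brown than in white cells on both days. The signals were 6.53, 36.9, 14.7, 49.1 and 22.6 on brown day 7 arrays 7, 8, 11, 12 and 22, against 2.73, 1.67, 1.98, 2.58 and 3.15 on brown day 4 arrays 5, 6, 9, 10 and 19. White day 7 arrays ran from 115 to 202 with a median of 132, against 29.6 to 73.4 with a median of 59.4 at white day 4. Every brown day 4 array lay under the floor, as did brown day 7 array 7, and 4 of the 5 brown day 7 arrays lay above it. The arrays did not overlap in any of the 4 comparisons between groups that share a day or a cell type. Between the days in brown cells, array 7 was set apart from day 4 only by values under the floor. Such values have no order, and nothing is read from that separation. Among all tested probe sets, groups did not overlap for 9.73% between the days in brown cells, 4.79% in white cells, 18.1% between brown and white cells at day 7 and 7.29% at day 4. In the order of levels, white day 7 stood first, then white day 4, brown day 7 and brown day 4. The neighbours white day 4 and brown day 7 overlapped, since brown day 7 arrays 8 and 12 lay within the white day 4 range.

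**Figure D1:**
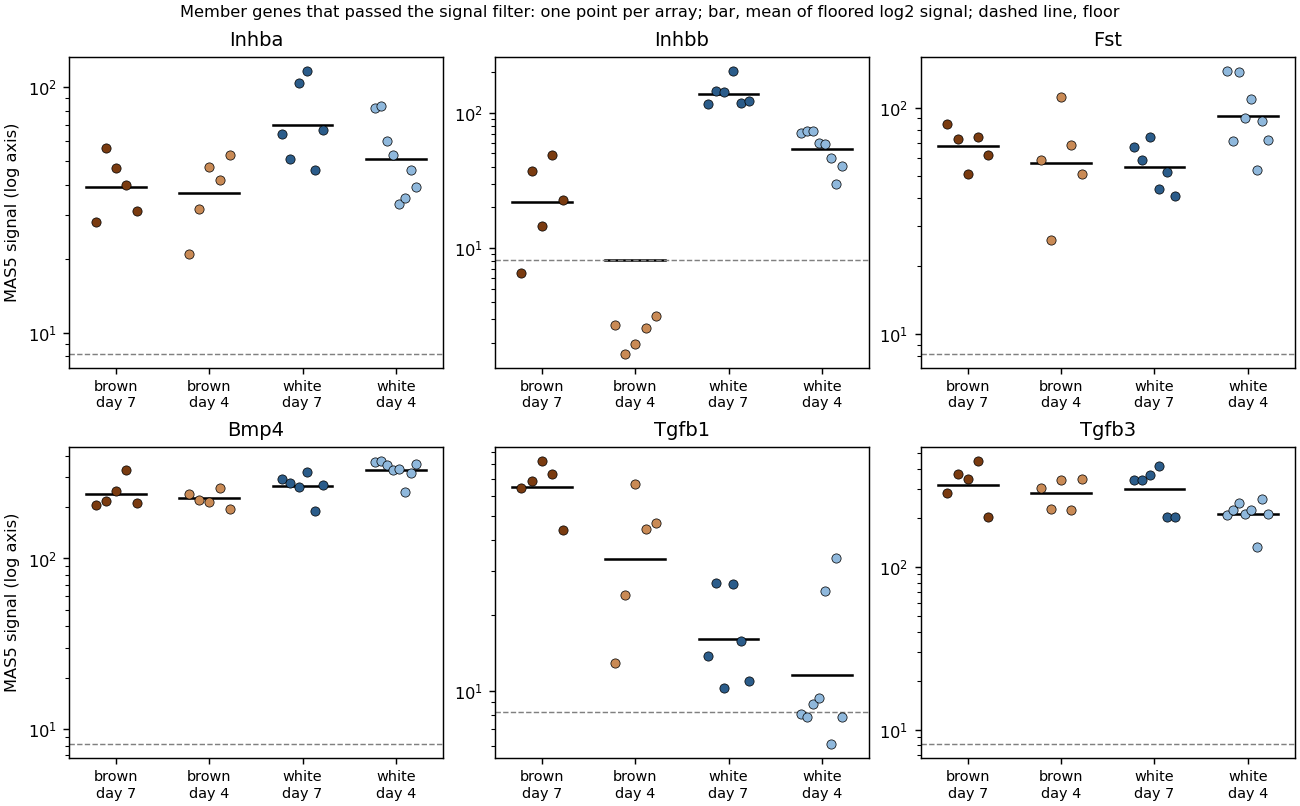
MAS5 signal on a log axis of the 6 members with a tested probe set, 1 point per array, with the groups from left to right in the order brown day 7, brown day 4, then the white groups likewise; the bar is the mean of floored log2 values, the dashed line is the floor of 8.21, and Bmp4 is shown by probe set 93455_s_at. Inhbb has its white day 7 arrays at 115 to 202 and its brown day 4 arrays all under the floor, and Tgfb1 has its brown day 7 arrays at 43.8 to 82.3, above all white day 7 arrays.

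In brown cells Inhbb rose by at least 2.65-fold at day 7 (1.41 ± 0.34, adjusted p = 0.00696), a lower bound because day 4 lay at the floor. In white cells it rose by 1.35 ± 0.29 (adjusted p = 0.00241). Of the 7 member probe sets this was the only one called between the days in brown cells, where 12.1% of all probe sets were called in either direction. In white cells 2 of 7 were called, where 19% of all were. The brown call was lost when values were floored at their 40th percentile (0.22, adjusted p = 0.600), and when white arrays were left out of the fit (1.41, adjusted p = 0.0544). The white call was lost once the Gapdh ratio entered as a covariate (1.17, adjusted p = 0.325), the ratio that moved with the day in white cells, and its part in the result was not tested further. Without white day 4 arrays 45 and 51 the white rise was 1.13 (adjusted p = 0.0141).

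Between the cell types Inhbb was 6.31-fold lower in brown cells at day 7 (-2.66 ± 0.33, adjusted p = 1.17e-06) and at least 6.58-fold lower at day 4 (-2.72 ± 0.31, adjusted p = 3.11e-07). Both calls held in each of the 12 other settings tried, with differences of -2.72 to -2.03 at day 7 and -4.52 to -0.90 at day 4, the floor being what moved the day 4 value. Without arrays 45 and 51 the day 4 difference was -2.93 (adjusted p = 1.34e-07). Inhbb passed the filter mainly through its white arrays, with 2 brown day 7 and 0 brown day 4 arrays above their 40th percentile. The difference of the day effects, brown minus white, was 0.06 ± 0.45 (adjusted p = 0.987, 95% interval -0.88 to 1.0), and its sign depended on the floor. Summed signals of 7 fibroblast and preadipocyte markers moved with Inhbb, at 7933 to 12899 on brown day 7 arrays, 5980 to 7059 on brown day 4 arrays, 17307 to 21657 on white day 7 arrays and 9074 to 19826 on white day 4 arrays. The matrix genes Col1a1, also a pathway target, and Col3a1 gave most of these sums. Thy1 and Cd34 ran the other way, with day 7 medians of 1100 and 134 in brown cells, against 523 and 35.3 in white cells. Of these 7 markers, 2 were called higher and 3 lower in brown cells at day 7, and 3 higher and 3 lower at day 4. Their part in the result was not tested.

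Inhba, the activin beta A subunit, was lower in brown than in white cells at day 7 and was not called in any other comparison. Its signals were 28.2, 56.4, 46.9, 39.8 and 31.1 on the brown day 7 arrays, against 20.9, 31.9, 47.3, 41.6 and 52.7 on the brown day 4 arrays. In white cells the day 7 arrays ran from 45.7 to 116 with a median of 65.5, against 33.5 to 84.0 with a median of 49.3 at white day 4. The groups overlapped in every comparison. Levels stood in the order white day 7, white day 4, brown day 7 and brown day 4, and no 2 neighbours in that order were separated by their arrays.

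The brown minus white difference of Inhba was -0.84 ± 0.30 at day 7 (1.79-fold lower in brown, adjusted p = 0.0377) and -0.47 ± 0.28 at day 4 (adjusted p = 0.248). Leaving out brown day 7 array 7, 12 or 22 ended the day 7 call (adjusted p = 0.107, 0.0604 and 0.0862), as did leaving out white day 7 array 39 or 40 (adjusted p = 0.0919 and 0.0985), with differences of -0.97 to -0.70 over the 11 arrays left out in turn. It was also lost with the Gapdh covariate (-0.94, adjusted p = 0.394), with runs of array numbers as a random block (-0.80, adjusted p = 0.0804) and with no filter (adjusted p = 0.0639). The day 7 minus day 4 difference was 0.08 ± 0.31 in brown cells (adjusted p = 0.915) and 0.46 ± 0.26 in white cells (adjusted p = 0.239). Its sign in brown cells turned with quantile normalization (-0.02).

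Fst, which encodes the activin inhibitor follistatin, fell at day 7 in white cells and was not called elsewhere. Signals were 85.0, 72.6, 51.1, 73.9 and 61.6 on the brown day 7 arrays, against 58.9, 26, 111, 68.3 and 51.2 on the brown day 4 arrays. Signals of white day 7 arrays ran from 40.7 to 74.4 with a median of 55.5, against 53.1 to 145 with a median of 89.1 at white day 4. White day 4 arrays 33 and 37, at 145 and 144, were the highest of all 24. Brown day 4 array 6 was the lowest, and every pair of groups overlapped. The order of levels was white day 4, brown day 7, brown day 4 and white day 7.

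The white day 7 minus day 4 difference of Fst was -0.74 ± 0.26 (1.67-fold lower at day 7, adjusted p = 0.0430). The call was lost in 9 of the 14 fits that left out 1 white array, namely day 4 array 33, 37, 38, 41 or 45 and day 7 array 36, 40, 43 or 44, with adjusted p up to 0.0996 and differences of -0.85 to -0.64. It was lost without arrays 45 and 51 together (-0.81, adjusted p = 0.0587) and grew to -1.52 but was not called with the Gapdh covariate (adjusted p = 0.0811). With no filter the adjusted p was 0.0779, and with no intensity trend 0.0502. In brown cells the difference was 0.25 ± 0.30 (adjusted p = 0.659). The difference of the day effects, brown minus white, was 0.99 ± 0.39 (adjusted p = 0.454 by limma). Brown minus white was 0.30 ± 0.29 at day 7 (adjusted p = 0.483) and -0.69 ± 0.27 at day 4 (adjusted p = 0.0664), the day 4 difference being called without brown day 4 array 9 (-0.93, adjusted p = 0.0145) or white day 4 array 42 (-0.80, adjusted p = 0.0303).

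**Figure D2:**
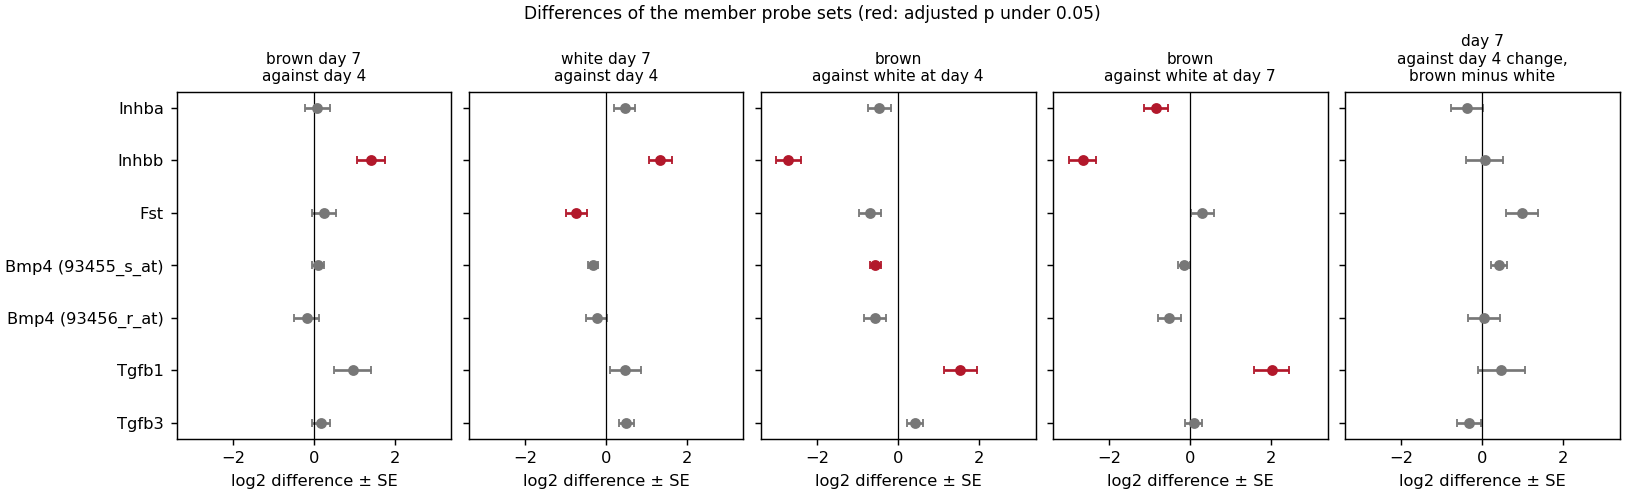
Log2 differences ± SE of the 7 tested member probe sets in the 5 comparisons, 1 panel each, with red for adjusted p under 0.05. Inhbb is called in each of the first 4 panels, Tgfb1 and Inhbb are called in opposite directions in both brown against white panels, and no member is called in the last panel.

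Bmp4, a ligand known to commit precursors to the adipocyte lineage, was lower in brown than in white cells at day 4 by 1 of its 2 probe sets. Probe set 93455_s_at read 206, 219, 250, 331 and 211 on the brown day 7 arrays, against 239, 220, 214, 260 and 196 on the brown day 4 arrays. On white day 7 arrays it ran from 190 to 321 with a median of 273, against 246 to 371 with a median of 345 at white day 4. At day 4 only white array 42, at 246, fell within the brown range. At day 7 brown array 12, at 331, lay above all white arrays. By this probe set levels stood in the order white day 4, white day 7, brown day 7 and brown day 4, each overlapping the next. Probe set 93456_r_at ran from 38.2 to 119 on brown day 7 arrays, 47.2 to 98.2 on brown day 4 arrays, 55.7 to 151 on white day 7 arrays and 72.8 to 189 on white day 4 arrays, with all groups overlapping. The suffixes of both probe sets mark designs that may bind related sequences or follow relaxed rules.

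The brown minus white difference of Bmp4 at day 4 was -0.56 ± 0.14 by 93455_s_at (1.48-fold lower in brown, adjusted p = 0.00325) and -0.56 ± 0.27 by 93456_r_at (adjusted p = 0.143). At day 7 the differences were -0.15 ± 0.14 (adjusted p = 0.499) and -0.52 ± 0.29 (adjusted p = 0.202). Day 7 minus day 4 in brown cells was 0.09 ± 0.15 and -0.18 ± 0.30 by the 2 probe sets (adjusted p = 0.774 and 0.778). In white cells it was -0.33 ± 0.13 and -0.23 ± 0.26 (adjusted p = 0.0742 and 0.588). Without white day 4 array 42 the first of these was -0.39 with an adjusted p of 0.0327. The difference of the day effects, brown minus white, was 0.42 ± 0.20 by 93455_s_at (adjusted p = 0.605).

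Bmp2 and Bmp7 stayed near the floor in all groups. Of the 3 Bmp2 probe sets, 161118_r_at lay under the floor on all 24 arrays and 102559_at on 19. The third, 161901_r_at, ran from 5.42 to 18.1 on brown day 7 arrays, 6.58 to 19.4 on brown day 4 arrays, 5.75 to 32.8 on white day 7 arrays and 9.66 to 20.7 on white day 4 arrays. The highest Bmp2 values of 102559_at were 33.7 and 19.1, on brown day 7 arrays 8 and 12, the same 2 brown arrays on which Inhbb was highest. Bmp7 ran from 4.62 to 10.2 at brown day 7, 6.28 to 11.3 at brown day 4, 5.43 to 14.5 at white day 7 and 5.73 to 14.2 at white day 4, with 11 of 24 arrays under the floor. With no filter on dim probe sets, no comparison called any probe set of Bmp2 or Bmp7, and such low signals cannot show whether these transcripts were there.

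Tgfb1, a ligand known for its action on matrix production, was the only tested member called higher in brown than in white cells, on both days. Its signals were 64.3, 68.6, 82.3, 73.3 and 43.8 on the brown day 7 arrays, against 12.9, 24.1, 66.5, 44.2 and 46.7 on the brown day 4 arrays. The white range at day 7 was 10.2 to 26.8 with a median of 14.7, against 6.14 to 33.9 with a median of 8.42 at white day 4. All brown day 7 arrays lay above all white day 7 arrays. At day 4 the groups overlapped, through brown arrays 5 and 6, at 12.9 and 24.1, and white arrays 41 and 45, at 24.9 and 33.9. Of the 8 white arrays, 4 lay under the floor. Brown day 7 stood highest in level, followed by brown day 4, then by white day 7 and last by white day 4, with the arrays of each neighbouring pair overlapping.

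The brown minus white difference of Tgfb1 was 2.02 ± 0.43 at day 7 (4.05-fold higher in brown, adjusted p = 0.00104) and 1.54 ± 0.40 at day 4 (at least 2.91-fold, adjusted p = 0.00658). The day 4 size is a lower bound because 4 of the 8 white day 4 arrays lay at the floor. With no floor beyond a signal of 1 it was 1.61. Tgfb1 passed the filter mainly through its brown arrays, so that its direction was partly fixed by the filter. Of the brown arrays, 5 from day 7 and 3 from day 4 lay above their 40th percentile. Among white arrays this held for 0 from day 7 and 1 from day 4. Both calls, at day 7 and day 4, held in every fit with 1 array left out, and in the limma fit with no filter (adjusted p = 0.00257 and 0.0133). The sizes depended on the floor, at 1.17 (adjusted p = 9.15e-06) and 0.47 (adjusted p = 0.0313) with the floor at the 40th percentile. The day 7 call did not hold with the Gapdh covariate (2.02, adjusted p = 0.151). Between brown and white cells, 3 of 7 member probe sets were called at day 7 and 3 of 7 at day 4, where 25.2% (day 7) and 23% (day 4) of all probe sets were. Day 7 minus day 4 was 0.95 ± 0.45 in brown cells (adjusted p = 0.180) and 0.48 ± 0.38 in white cells (adjusted p = 0.417), the first being called with the higher floor (0.67, adjusted p = 0.0109) and with array weights (1.15, adjusted p = 0.0449).

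Endothelial markers moved with Tgfb1. Of the 7 that were tested, 4 were higher and 1 was lower in brown than in white cells at day 7, and 4 were higher and 0 lower at day 4. The summed signal of the 9 endothelial markers on the array was 764 to 1180 on brown day 7 arrays, 498 to 699 on brown day 4 arrays, 206 to 398 on white day 7 arrays and 239 to 420 on white day 4 arrays. The defining marker Cdh5 was higher in brown cells by 2.59 ± 0.41 at day 7 and 1.39 ± 0.38 at day 4. Flt1 ran the other way at day 7, with medians of 23.1 in brown and 48.1 in white cells. Pecam1 was not called (-0.32 and -0.40), and Vwf lay under the floor on 18 of 24 arrays. Striated muscle markers were also higher in brown cells, with 6 of 13 higher and 0 lower at day 7, and 10 higher and 0 lower at day 4. Their summed signals were 1760 to 2345 (brown day 7), 2470 to 3608 (brown day 4), 934 to 1395 (white day 7) and 757 to 1189 (white day 4). Macrophage markers ran opposite to Tgfb1, with 0 of 8 higher and 4 lower in brown cells at day 7, and 0 higher and 3 lower at day 4. Of these markers Itgam lay under the floor on all 24 arrays and was not tested. The endothelial, striated muscle and macrophage markers are given as levels only. Their part in the result was not tested.

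Tgfb2 did not pass the filter, with 3 of 24 arrays above their 40th percentile (2 at white day 7 and 1 at white day 4). It read 8.23, 9.88, 12.9, 14.4 and 9.01 on the brown day 7 arrays, against 14, 16.9, 7.93, 3.31 and 11.8 on the brown day 4 arrays. White cells at day 7 gave 5.33 to 57.5 with a median of 30.7, against 6.0 to 33.7 with a median of 20.4 at white day 4. White day 7 arrays 35, 36, 39 and 40 lay above all brown arrays, 43 lay just under the highest brown day 7 array and 44 under the lowest. In the fit with no filter, brown minus white was -1.20 ± 0.39 at day 7 (adjusted p = 0.0379) and -0.72 ± 0.37 at day 4 (adjusted p = 0.227).

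**Figure D3:**
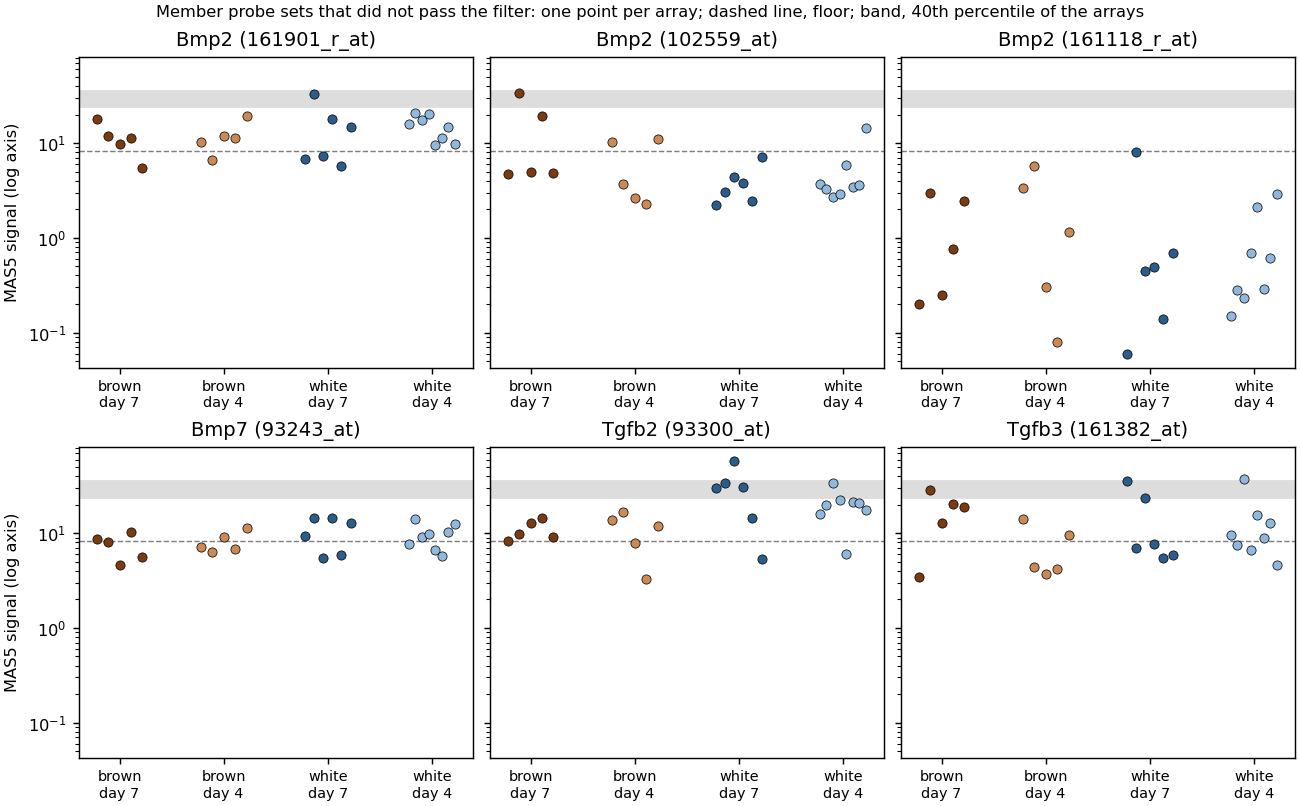
MAS5 signal on a log axis of the 6 member probe sets that did not pass the filter, 1 point per array, with the groups from left to right in the order brown day 7, brown day 4, then the white groups likewise; the dashed line is the floor of 8.21 and the grey band is the range of the arrays' 40th percentiles, 23.8 to 35.8. Most points of Bmp2, Bmp7 and the second Tgfb3 probe set lie under the band, and Tgfb2 reaches 57.5 on 1 white day 7 array.

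Tgfb3 was not called in any comparison by its tested probe set, 102751_at, which lay above the filter level on all arrays. It read 284, 371, 346, 443 and 203 on the brown day 7 arrays, against 302, 225, 340, 222 and 345 on the brown day 4 arrays. In white cells at day 7 it lay at 201 to 416 with a median of 339, against 133 to 260 with a median of 217 at white day 4. White day 7 arrays 43 and 44, at 201 and 203, lay within the day 4 range and the other 4 above it. Day 7 minus day 4 was 0.50 ± 0.19 in white cells (adjusted p = 0.0605), and without array 43 or 44 it was 0.62 or 0.61 and was called (adjusted p = 0.0263 and 0.0294). The same difference was called with a stricter filter (adjusted p = 0.0489), array weights (0.0373) and runs of array numbers as a random block (0.0297). In brown cells it was 0.18 ± 0.22 (adjusted p = 0.677). Its levels stood in the order brown day 7, white day 7, brown day 4 and white day 4, each overlapping the next.

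Brown minus white for Tgfb3 was 0.09 ± 0.21 at day 7 (adjusted p = 0.793) and 0.42 ± 0.20 at day 4 (adjusted p = 0.134). Its second probe set, 161382_at, ran from 3.43 to 37.1 with 11 of 24 arrays under the floor and 2 above their 40th percentile. For the difference between brown and white cells in the change between the days, limma called 0 of 7 member probe sets and 0.214% of all probe sets. Of the 7, 2 (Fst and Bmp4 93455_s_at) had an unadjusted p under 0.05, as did 7.98% of all probe sets. The median difference of the 7 member probe sets was 0.18 for day 7 against day 4 in brown cells, 0.46 in white cells, -0.15 for brown against white cells at day 7 and -0.56 for those at day 4, against 0.0119, 0.012, 0.00103 and 0.00649 over all probe sets in the same comparisons. Bmp4 counts with 2 of the 7, and both brown against white medians are its values. They are those of 93455_s_at at day 7 and 93456_r_at at day 4, neither of them called, and no shift of the family is read from them.

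For each member with a call, the genes most like it were taken as the 3 highest Pearson correlations of log2 signal over the 24 arrays among 6280 genes. The points share arrays and scaling, and the correlation over all arrays carries the differences between groups, so values within the 10 brown and 14 white arrays are given beside it. Inhbb was most like Aebp1 (r = 0.95 over all arrays, 0.79 within brown and 0.94 within white), Dpt (0.94, 0.68 and 0.92) and Stx3 (0.93, 0.84 and 0.67). Tgfb1 was most like Icam2 (0.83, 0.79 and 0.22), Prelid3b (0.80, 0.07 and 0.69) and the endothelial marker Sox18 (0.79, 0.73 and -0.10). Bmp4 was most like Klf4 (0.87, 0.72 and 0.81), Icam1 (0.78, 0.63 and 0.66) and Timp2 (0.77, 0.64 and 0.66). Inhba was most like Pip4k2a (0.81, 0.84 and 0.71), St6gal1 (0.80, 0.82 and 0.77) and Id4 (0.79, 0.37 and 0.84), and Fst like Itgb4 (0.70, 0.57 and 0.75), Adm (0.67, 0.56 and 0.70) and Cited2 (0.67, 0.36 and 0.85).

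Among other genes of the pathway, the secreted and matrix proteins that bind or process these ligands were lower in brown cells wherever they were called. Of 13 extracellular regulators tested, 0 were higher and 7 lower in brown than in white cells at day 7, and 0 higher and 7 lower at day 4, where 25.4% (day 7) and 24.5% (day 4) of all tested genes were called in either direction, and 12.3% and 12.8% were lower. Ltbp2, a latent TGF-beta binding protein family member, differed by -2.09 ± 0.26 at day 7 and -2.24 ± 0.24 at day 4 (adjusted p = 1.22e-06 and 1.53e-07). Ltbp1, which holds latent TGF-beta in the matrix, differed by -1.82 ± 0.43 and -1.48 ± 0.40 (adjusted p = 0.00260 and 0.00883). It lay under the floor on all 5 brown day 7 arrays and 4 of 5 brown day 4 arrays. The day 7 value is therefore a bound, and the floor limits the day 4 size as well. Both calls were lost with the higher floor (-0.32 and -0.25), and the day 7 call also with the Gapdh covariate (-0.45, adjusted p = 0.822). Dcn, a proteoglycan that binds TGF-beta, differed by -1.57 ± 0.23 at day 4, and the BMP antagonist Nbl1 by -1.35 ± 0.22 at day 7. By day, 2 of 13 rose in each cell type, namely Dcn by 1.34 ± 0.26 in brown and 1.05 ± 0.22 in white cells and the procollagen C-proteinase Bmp1 by 0.99 ± 0.26 and 0.69 ± 0.22, where 13% and 19.5% of all genes were called.

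Of 8 receptors tested, 1 was lower in brown than in white cells at day 7 and 2 at day 4, with 0 higher, where 12.3% (day 7) and 12.8% (day 4) of all genes were lower. The type II BMP receptor Bmpr2 had signals of 9.22 to 38.9 on brown day 7 arrays, 7.19 to 23.7 on brown day 4 arrays, 64.7 to 106 on white day 7 arrays and 9.52 to 96.1 on white day 4 arrays. Against the 40th percentiles of 23.8 to 35.8, all its brown day 4 signals lay under the filter level and all its white day 7 signals above. The white day 7 arrays alone were enough for it to be tested, so that its direction was partly fixed by the filter. Bmpr2 differed by -1.98 ± 0.44 at day 7 and -1.79 ± 0.41 at day 4 (adjusted p = 0.00155 and 0.00247), and the type I receptor Bmpr1a by -0.90 ± 0.29 at day 4 (adjusted p = 0.0257). The day 7 call of Bmpr2 was lost with the Gapdh covariate (-1.01, adjusted p = 0.548), and the day 4 call of Bmpr1a with no filter (adjusted p = 0.0506) and with only the day 4 arrays in the fit (adjusted p = 0.0781). By day, the co-receptor Eng fell in brown cells (-0.66 ± 0.15). In white cells the co-receptor Tgfbr3 (-0.74 ± 0.23) and Acvrl1 (-0.51 ± 0.15) fell, as did a second Acvrl1 probe set (-0.53) but not another one (-0.04). With the Gapdh covariate the calls of Tgfbr3 (-0.23, adjusted p = 0.878) and Acvrl1 (-0.08, 0.939) were lost. These further Acvrl1 probe sets, not counted above, were lower in brown than in white cells at day 4 (-0.52 and -0.51, adjusted p = 0.0175 and 0.00956). At day 7 only the last was (0.12 and -0.82, adjusted p = 0.645 and 0.000201). Of 6 other ligands tested, Gdf10 was lower in brown cells, by -1.98 ± 0.22 at day 7 and -1.48 ± 0.21 at day 4, and fell at day 7 in brown cells (-0.86 ± 0.23). Lefty1 was lower in brown cells at day 4 (-0.51 ± 0.19). The Gdf10 call between the days was lost with only brown arrays in the fit (adjusted p = 0.0896), and that of Lefty1 in 7 of the 12 other settings (adjusted p = 0.0507 to 0.115), among them the fit without white day 4 arrays 45 and 51 (-0.44, adjusted p = 0.0967).

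**Figure D4:**
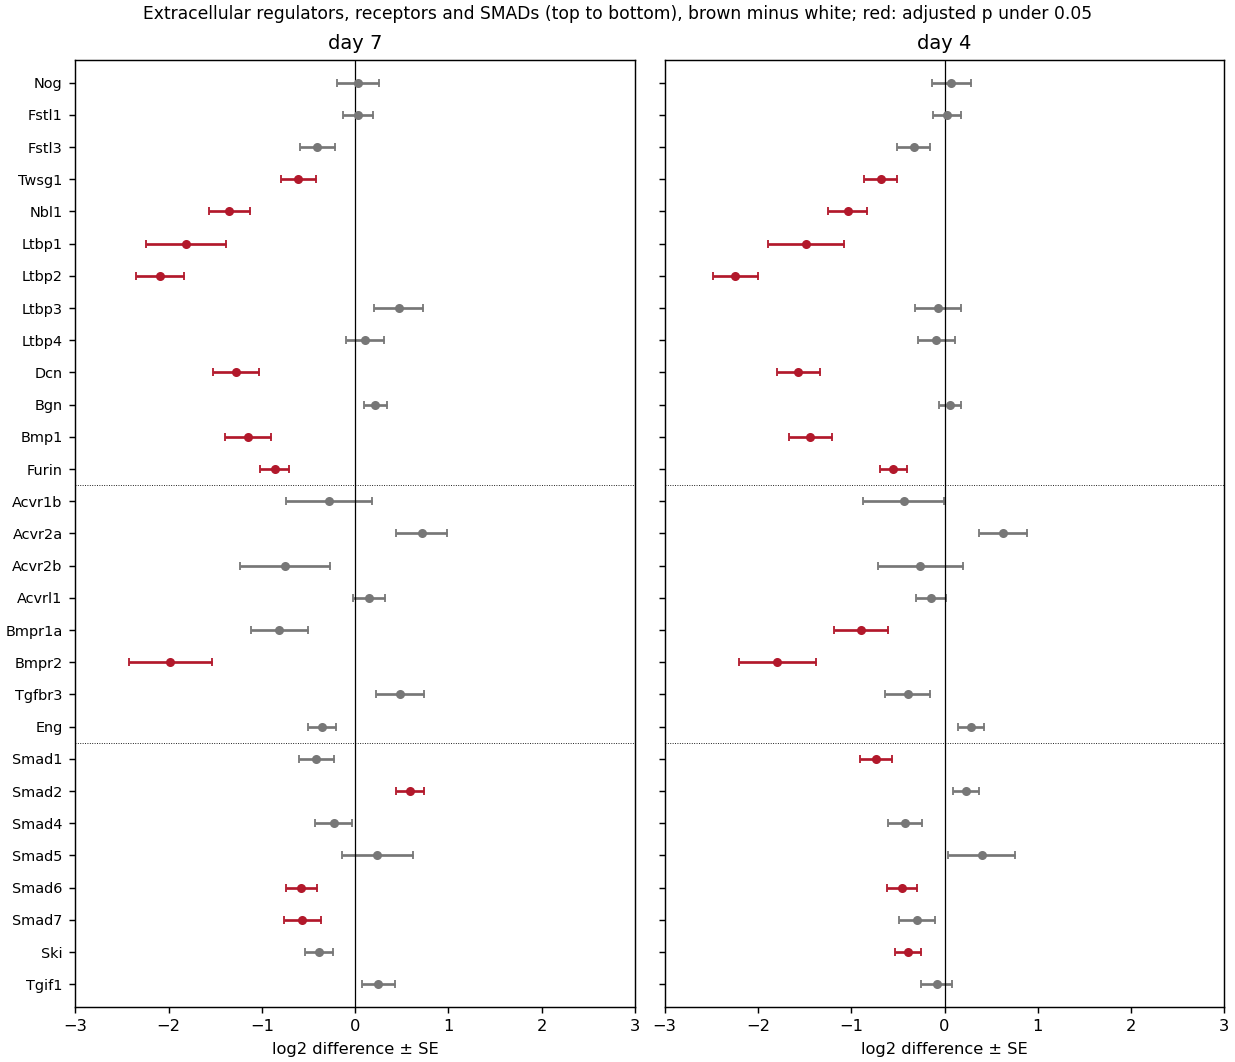
Brown minus white log2 differences ± SE of 13 extracellular regulators, 8 receptors and 8 SMADs and SMAD regulators, from top to bottom and parted by dotted lines, at day 7 (left) and day 4 (right), with red for adjusted p under 0.05. All called genes lie to the left of 0 except Smad2 at day 7, and Ltbp2 lies at -2.09 and -2.24.

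Smad6, an inhibitory SMAD that is itself a target of BMP signalling, fell at day 7 in both kinds of cell, by 1.06 in brown (-1.06 ± 0.17, adjusted p = 0.000292) and 0.94 in white cells (-0.94 ± 0.15, adjusted p = 0.000175), the only 1 of 8 SMADs and SMAD regulators called by day. It was lower in brown cells on both days (-0.58 ± 0.17 and -0.45 ± 0.16 at day 7 and day 4). At day 7 Smad7 was also lower (-0.57 ± 0.20) and Smad2 higher (0.58 ± 0.15). At day 4 Smad1 (-0.73 ± 0.17) and Ski (-0.39 ± 0.14) were lower. With the Gapdh covariate the calls of Smad6 on both days (adjusted p = 0.738 at day 7 and 0.0668 at day 4), Smad7 (0.296), Smad2 (0.660) and Ski (0.0887) were lost. With runs of array numbers as a random block, those of Smad7 (adjusted p = 0.111), Smad6 at day 4 (0.0660) and Ski (0.0863) were lost.

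Of 23 genes known as targets of these pathways, 5 rose and 3 fell at day 7 in brown cells, and 3 rose and 4 fell in white cells, where 13% (brown) and 19.5% (white) of all genes were called. The BMP targets Id1, Id2 and Id3 fell in both, by -0.91 ± 0.17, -1.16 ± 0.31 and -0.76 ± 0.19 in brown cells and by -1.26 ± 0.14, -1.0 ± 0.26 and -0.95 ± 0.16 in white cells. The matrix gene Postn rose in both (1.31 ± 0.29 and 1.08 ± 0.25). Col1a1 (1.23 ± 0.24) and the smooth muscle gene Tagln (0.84 ± 0.18) rose in brown cells, and Ccn2 (0.92 ± 0.28) and the cell cycle inhibitor Cdkn1a (0.65 ± 0.22) in white cells. With the Gapdh covariate the white calls of Id2 (-0.70, adjusted p = 0.566) and Id3 (-0.86, 0.161) were lost. So were those of Postn (1.20, 0.195), Ccn2 (0.78, 0.552) and Cdkn1a (0.50, 0.649). A second Col1a1 probe set rose in both brown (1.53 ± 0.23) and white cells (0.68 ± 0.20, adjusted p = 0.0186). A second Cdkn1a probe set was not called in white cells (0.39 ± 0.19, adjusted p = 0.170). For a difference between brown and white cells in the change, limma called 0 of the 57 genes of the pathway lists and 0.191% of all genes. An unadjusted p under 0.05 was found for 6 of the 57 and for 7.32% of all genes.

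Between brown and white cells, 4 of the 23 targets were higher and 6 lower at day 7, and 2 higher and 6 lower at day 4, where 25.4% (day 7) and 24.5% (day 4) of all genes were called. The cell cycle inhibitor Cdkn2b was lower in brown cells (-2.15 ± 0.24 at day 7 and -2.31 ± 0.22 at day 4), as was Col1a1 (-0.98 ± 0.23 and -1.71 ± 0.22), and Tagln differed by -1.42 ± 0.16 at day 4. Higher in brown cells were Id1 (0.83 ± 0.16 and 0.49 ± 0.15), Tgfbi (1.35 ± 0.25 and 0.69 ± 0.24) and, at day 7, Atf3 (0.87 ± 0.20). A second Atf3 probe set was not called at day 7 (0.24 ± 0.33, adjusted p = 0.658). At day 7 Cdkn1a was lower in brown cells by 1 probe set (-1.65 ± 0.25) and was not called by another (0.23 ± 0.22, adjusted p = 0.479). At day 4 that other probe set was higher in brown cells (0.87 ± 0.21, adjusted p = 0.00279). Of the 51 named pathway differences, 20 lost their call with the Gapdh ratio as a covariate, 9 with no filter, 7 with only the groups compared in the fit, and 6 with runs of array numbers as a random block. Among the 20 were Col1a1, Id1, Atf3 and Cdkn1a between the cell types at day 7 (adjusted p = 0.496, 0.104, 0.151 and 0.0596). Of the same 51, 14 lost it in at least 1 fit with an array left out. Without white day 4 arrays 45 and 51, 5 were lost, which were Lefty1 and Tgfbi between the cell types at day 4 and Bmp1, Acvrl1 and Cdkn1a between the days in white cells. Of 9 smooth muscle and pericyte markers, which include the target gene Tagln, 3 were higher and 5 lower in brown than in white cells at day 7, and 0 higher and 4 lower at day 4. Their summed signals, to which Tagln and Acta2 gave most, were 3895 to 5864 on brown day 7 arrays, 2925 to 3837 on brown day 4 arrays, 6348 to 9341 on white day 7 arrays and 4442 to 8291 on white day 4 arrays. Their part in the result was not tested.

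**Figure D5:**
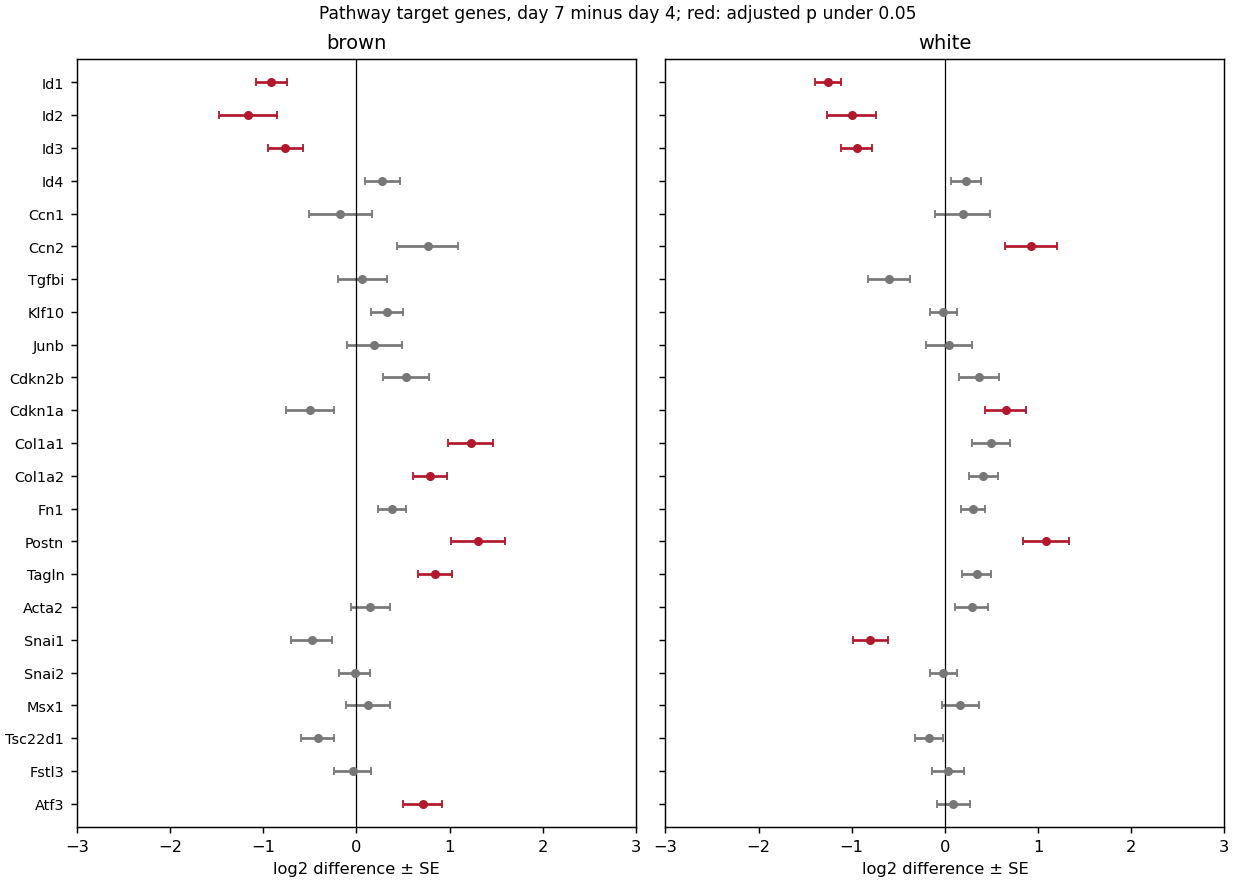
Day 7 minus day 4 log2 differences ± SE of 23 target genes in brown (left) and white cells (right), with red for adjusted p under 0.05. Id1, Id2 and Id3 lie to the left of 0 and Postn to the right in both panels.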

How the data were processed

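The authors deposited 1 signal intensity per probe set and array on a linear scale. The submitters' processing notes name MAS5 (version not given in the sources used here). No detection calls were used, and precision is limited by the number of arrays. Each of the 24 arrays was brought to a 2% trimmed mean of 150, signals were floored at 8.21 (20th percentile of all values) and log2 was taken. Probe sets above the 40th percentile of their array on at least 5 arrays were kept and 66 control probe sets left out, leaving 8397. Platform symbols, which can be old, were single for 10855 probe sets, several for 396 and absent for 1237, and 10839 were matched to the RefSeq gene table, which changed 0. A pathway gene is its brightest tested probe set (6281 genes).

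The 4 group means were fitted with limma 3.58.1 in R 4.3.3 (lmFit, eBayes with trend, 20 residual degrees of freedom), with two-sided Benjamini-Hochberg adjusted p-values over all 8397 probe sets within a comparison. The fit was tested on simulated data. Every member probe set is reported. Of each pathway list the up to 3 largest rises and 3 largest falls are named, and the others only as counts. The members and lists were chosen with earlier results of these data known. Alternatives were the scaling, floor, filter, intensity trend, array weights, the Gapdh ratio as a covariate, runs of array numbers as a random block, only the groups compared, and arrays left out. No genome build was named for the arrays, and promoter sequences and positions are those of RefSeq GRCm38.p6.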

Additional observations from a re-analysis of the deposited data

Results flagged for a closer look

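Outlying arrays were sought in 50 sets of values, each of 1 member probe set or of the Gapdh ratio in 1 group. In 5 of them, all of member values, 1 array lay far from the others of its group. Chance flags about 1 in 20 such sets, a rate that does not hold where values are tied at the floor. White day 4 array 42 was low for 2 members, with a signal of 246 for Bmp4 93455_s_at, against 317 to 371 on the other 7 arrays, and of 133 for Tgfb3 102751_at, against 208 to 260. The other 3 values stood high among dim signals. They were 14.4 for Bmp2 102559_at on white day 4 array 51 (others 2.71 to 5.89), 10.2 for Bmp7 on brown day 7 array 12 (others 4.62 to 8.65) and 37.1 for Tgfb3 161382_at on white day 4 array 37 (others 4.60 to 15.7). The search used floored values. For Bmp2 102559_at the other 7 arrays were equal at the floor, so that any array above it would have been flagged. In the Bmp7 set 3 of 5 arrays, and in the Tgfb3 161382_at set 3 of 8, also lay at the floor.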

How the results depend on the processing

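Counts of called members and probe sets moved by over 1.5 times under these settings. Array weights gave 2 members and 1665 probe sets for the days in brown cells and 45 probe sets for the difference of day effects, and only the groups compared gave 0 members in brown cells. For the days in white cells, 1 member was called with no filter, with no intensity trend and without arrays 45 and 51 (1053 probe sets), 4 with the block of array-number runs, and 0 with the Gapdh covariate (37 probe sets). At day 7, brown against white gave 1 member with a stricter filter, where Tgfb1 and others were not tested, and 1 with the covariate (274 probe sets). The difference of day effects gave 10 probe sets with no floor, 35 with the 40th percentile floor, 10 with no filter, 8 with a stricter one, 11 without the trend, 5 with the covariate and 37 with the run block. With 1 array left out, probe sets ran from 668 to 1165 and members from 1 to 1 for brown days, 1130 to 1909 and 1 to 3 for white days, 1710 to 2035 and 2 to 3 for brown against white at day 7, 1547 to 2147 and 3 to 4 at day 4, and 4 to 23 and 0 to 0 for the difference.

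Directions turned only for values that were not called. By setting, these were Inhba in brown cells (-0.0185 with quantile normalization, -0.0024 with the higher floor), Tgfb1 in white cells (-0.0282 with the higher floor) and the Inhbb difference of day effects (-1.13 with the higher floor). With 1 array left out they were, in brown cells, Inhba (-0.12 to 0.21), Bmp4 93455_s_at (-0.0255 to 0.14), Bmp4 93456_r_at (-0.39 to 0.0199) and Fst (-0.0290 to 0.50), then Tgfb3 between cell types at day 7 (-0.0248 to 0.26), and the differences of day effects of Inhbb (-0.23 to 0.41) and Bmp4 93456_r_at (-0.16 to 0.25). The cause was not tested. No paired analysis was possible because no array number is shared between groups, so that no replicate number could serve as a block. The 7 runs of neighbouring array numbers, 6 of which hold both days, were fitted as a random block in its place (correlation 0.209), and the labels do not say that a run is a shared culture or day. Signals near the floor limit Bmp2, Bmp7, Tgfb2, brown Inhbb and white Tgfb1. The fit of only the groups compared is the main fit for the difference of day effects and was not run again.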
